A study of Mus musculus with 5 samples.

Results

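The genes described here are those for the MHC class II molecules of the mouse and for their master regulator: H2-Aa, H2-Ab1 and H2-Eb1, Cd74, Ciita, H2-DMa, H2-DMb1, H2-DMb2, H2-Oa and H2-Ob. They were chosen as a gene family, by symbol, and all 10 were found among the 55573 genes of the count tables. The RNA came from the right hemisphere of C57BL/6 female mice, 7 to 8 weeks old when GL261 cells were inoculated there. GL261 is a mouse glioma line, here transduced with a luciferase/mKate2 vector, and only mice above a bioluminescence threshold were included. The UMBO group (2 libraries) received ultrasound-mediated blood-brain barrier opening, that is, low-intensity pulsed ultrasound with intravenous microbubbles, and the vehicle group (3 libraries) received a dilution buffer. Sessions were on days 21 and 24, and the hemispheres were taken 24 h after the last one. Each library is taken as 1 mouse, so n = 3 against n = 2, and any further mouse of the experiment was not analysed here.

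MHC class II molecules are the surface proteins by which antigen presenting cells show peptides from the endosome to CD4+ T cells. H2-Aa and H2-Ab1 encode the alpha and beta chains of I-A, and H2-Eb1 the beta chain of I-E. Cd74, the invariant chain, escorts the newly made dimer and blocks its groove, H2-DM (H2-DMa with H2-DMb1 or H2-DMb2) exchanges the last invariant chain fragment for a peptide, and H2-O (H2-Oa with H2-Ob) inhibits H2-DM. Ciita binds no DNA itself but activates these genes through factors on the X and Y boxes of their promoters. In the healthy brain class II is low, and it is inducible in microglia and carried by infiltrating macrophages, dendritic cells and B cells.

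The promoter segments are shown because X and Y boxes are the sites through which Ciita is known to act, and they show which members held the searched letters. RefSeq promoter windows (GRCm38.p6, 250 bases before to 50 after each annotated start) held 7 of the 10 genes in 8 windows, with no entry for H2-Ab1, Cd74 and Ciita. Windows were searched on both strands for a Y box core, TGATTGG, and an X box core, AACNNATG, letters chosen after the windows of these genes had been read. The segments below are 80 bases each, 5′ to 3′ on the strand of the gene, with the matched cores in capitals.
H2-Eb1, chr17:34305746-34305825, forward strand: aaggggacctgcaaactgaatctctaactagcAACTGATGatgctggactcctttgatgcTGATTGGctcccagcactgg
H2-Aa, chr17:34287854-34287933, reverse strand: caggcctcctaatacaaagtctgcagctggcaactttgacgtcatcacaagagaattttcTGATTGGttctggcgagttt
H2-DMb1, chr17:34153068-34153147, forward strand: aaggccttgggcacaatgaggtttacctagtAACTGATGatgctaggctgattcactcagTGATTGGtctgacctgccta
H2-DMb2, chr17:34145097-34145176, forward strand: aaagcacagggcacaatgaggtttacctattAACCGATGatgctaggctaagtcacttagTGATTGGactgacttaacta
H2-Ob, chr17:34238786-34238865, forward strand: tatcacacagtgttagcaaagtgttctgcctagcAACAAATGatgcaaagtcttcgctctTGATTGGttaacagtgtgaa
H2-Oa, chr17:34092274-34092353, forward strand: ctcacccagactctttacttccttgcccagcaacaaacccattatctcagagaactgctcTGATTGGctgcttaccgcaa
The Y box core, which contains ATTGG, the reverse complement of CCAAT, lay on the gene's own strand in 6 of the 7 genes, between 45 and 92 bases before the annotated start. It was in 7.82% of all 32851 RefSeq promoter windows. H2-Eb1, H2-DMb1, H2-DMb2 and H2-Ob also held the X box core, with its first base 26 to 29 bases before that of the Y box core. The X box core alone was in 8.86% of all windows, and the X box core followed by the Y box core at 15 to 45 bases in 13 of them (0.0396%). Besides these 4 genes, the 13 windows belonged to H2-Eb2, BC051142, Bscl2 and predicted genes. H2-DMa matched neither core in its 2 windows, and in H2-Aa and H2-Oa the X box core letters were not found, which says nothing of factor binding there.

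With the exception of Ciita on chromosome 16 (GRCm38, 10480059 to 10528418) and Cd74 on chromosome 18, the genes lie on chromosome 17, from H2-Oa (34092340 to 34095234) to H2-Eb1 (34305867 to 34316674). Total counts per library lay between 59736771 and 86164159, and the members together took 13614, 85840 and 30394 counts with vehicle (replicates 1 to 3 in order, here and below) and 34096 and 146336 counts with UMBO (replicates 1 and 2 in order). The least counted value, H2-Ob in vehicle replicate 1, was 74 counts. Counting error was thus small beside the spread between mice for most of these genes. The neuron markers (5 genes, summed level 1891 to 6376 CPM) and oligodendrocyte markers (5 genes, 4848 to 5709 CPM) were present in every library. The methods give the tissue as the right hemisphere. UMBO replicate 2 stood apart from the other 4 libraries: its 8 proliferation markers summed to 400 CPM (27.1 to 93.1 in the others), and its neuron markers to 1891 CPM (3941 to 6376 in the others).

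The order of the genes by level was nearly fixed. On the scale of normalized CPM (a gene's counts relative to the TMM-scaled library size) per kb of exon, Cd74 was highest, with a mean over the 5 libraries of 233.3. H2-Eb1, H2-Ab1 and H2-Aa followed at 66.6, 53.6 and 39.3. Then came H2-DMb1 at 14.2, H2-DMa at 10.5, H2-Oa at 3.75, H2-DMb2 at 1.69, Ciita at 1.14 and H2-Ob at 0.416. Every neighbouring pair kept this order in 5 of 5 libraries except H2-DMb1 and H2-DMa, where H2-DMb1 was the higher in 3 of 5. Per length of the longest transcript instead, 6 of the 10 genes kept their place, since H2-Ab1 moved above H2-Eb1 and H2-DMa above H2-DMb1.

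The peptide-binding chains and the invariant chain differed more between mice than between treatments. Cd74 was at 74.1, 578.9 and 160.0 CPM with vehicle and at 159.9 and 985.9 CPM with UMBO. The groups overlapped: UMBO replicate 1 lay level with vehicle replicate 3 and far below vehicle replicate 2. The fitted log2 fold change of Cd74, UMBO against vehicle, was 1.08 (standard error 1.03).

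H2-Aa was at 29.1, 215.6 and 63.1 CPM with vehicle and at 70.7 and 368.2 CPM with UMBO, a log2 fold change of 1.10 (standard error 0.97). H2-Ab1 was at 24.2, 192.9 and 48.6 CPM with vehicle and at 61.6 and 361.3 CPM with UMBO, a log2 fold change of 1.25 (standard error 1.02). In both chains of I-A the groups overlapped, with UMBO replicate 1 at 0.328 and 0.319 times vehicle replicate 2. H2-Eb1 was at 26.6, 182.1 and 51.3 CPM with vehicle and at 59.6 and 327.2 CPM with UMBO, a log2 fold change of 1.16 (standard error 0.967). Its libraries fell in the same order as those of H2-Aa and H2-Ab1. Between the lowest and the highest library Cd74 differed 13.3-fold, H2-Aa 12.7-fold, H2-Ab1 14.9-fold and H2-Eb1 12.3-fold.

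The partner of H2-Eb1, the I-E alpha chain gene H2-Ea, is annotated as a polymorphic pseudogene, and C57BL/6 mice are known not to make I-E. It had 0 counts in each vehicle library and 1 and 3 counts in the UMBO libraries, so it was not tested. A count of 0 allows up to 3 counts per library.

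Ciita, which sets the expression of these genes, was at 3.45, 14.2 and 5.16 CPM with vehicle and at 6.07 and 25.2 CPM with UMBO. The libraries took the same order as for the I-A chains, with UMBO replicate 1 between vehicle replicates 3 and 2. Its log2 fold change was 1.04 (standard error 0.78), and it differed 7.31-fold between the lowest and the highest library, less than the I-A chains. Of its exonic bases 3.45% are shared with Dexi on the opposite strand, and whether the counting used strand is not given in the sources used here.

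**Figure D1:**
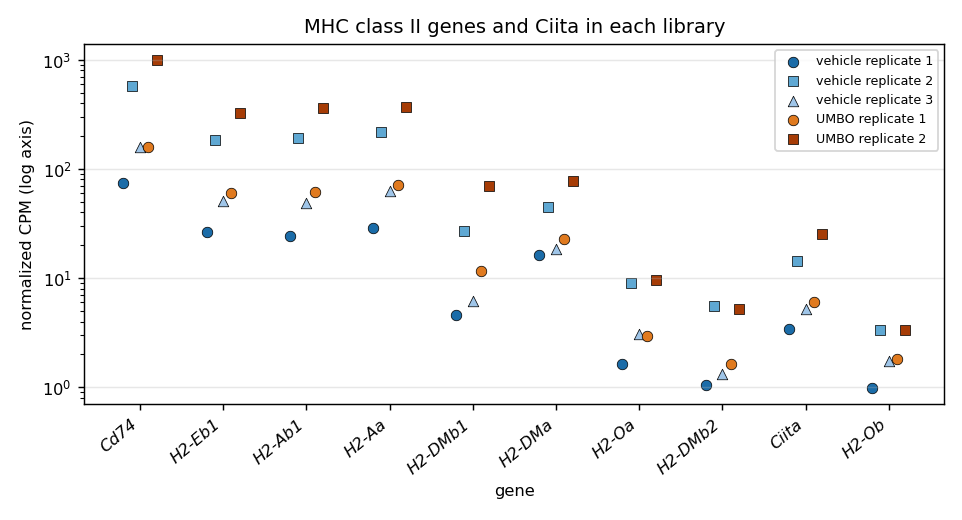
Normalized CPM (log axis) of the 10 genes in each of the 5 libraries, 1 point per library, with vehicle in blue and UMBO in orange and brown, genes ordered by level per kb of exon. Vehicle replicate 1 is the lowest point for all 10 genes, UMBO replicate 2 the highest for 9, and UMBO replicate 1 lies below vehicle replicate 2 for all 10.

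Among the peptide editors, H2-DMb1 had the largest fitted change of the family and H2-DMb2 one of the smallest. H2-DMb1 was at 4.57, 27.0 and 6.18 CPM with vehicle and at 11.7 and 69.98 CPM with UMBO, a log2 fold change of 1.70 (standard error 0.984). H2-DMb2, its neighbour on chromosome 17, was at 1.04, 5.55 and 1.31 CPM with vehicle and at 1.64 and 5.22 CPM with UMBO, a log2 fold change of 0.38 (standard error 0.863). H2-DMb2 was the only member whose highest library was vehicle replicate 2. These genes are close paralogs, so reads that fit both could have been divided or dropped in counting. H2-DMa was at 16.4, 44.8 and 18.6 CPM with vehicle and at 22.9 and 78.2 CPM with UMBO, a log2 fold change of 0.93 (standard error 0.634). Brd2 on the opposite strand shares 10.4% of the exonic bases of H2-DMa.

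The genes of H2-O, the inhibitor of H2-DM, had fitted changes smaller than their standard errors. H2-Oa was at 1.62, 9.06 and 3.10 CPM with vehicle and at 2.94 and 9.70 CPM with UMBO, a log2 fold change of 0.46 (standard error 0.82). UMBO replicate 1 lay below vehicle replicate 3 here, and UMBO replicate 2 was 1.07 times vehicle replicate 2. H2-Ob was at 0.99, 3.34 and 1.73 CPM with vehicle and at 1.80 and 3.34 CPM with UMBO, a log2 fold change of 0.35 (standard error 0.576). For H2-Ob the highest library was 3.38 times the lowest, the smallest span of the 10 genes. The antisense gene BC051537 shares 22.8% of the exonic bases of H2-Oa.

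The order of the libraries was much the same in the whole family. In 7 of the 10 genes it ran from vehicle replicate 1 over vehicle replicate 3, UMBO replicate 1 and vehicle replicate 2 to UMBO replicate 2. In 2 genes, Cd74 and H2-Oa, vehicle replicate 3 and UMBO replicate 1 changed places, and in H2-DMb2 vehicle replicate 2 and UMBO replicate 2 did. In 0 of 10 genes did both UMBO values exceed all vehicle values, against 11.5% of the 23592 genes tested.

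Tested across all genes with edgeR's quasi-likelihood test and Benjamini-Hochberg adjustment, 0 of the 10 genes passed an adjusted p of 0.05, as did 0 of all 23592 genes (0%). The adjusted p in edgeR was lowest for H2-DMb1 (0.497) and highest for H2-DMb2 (0.821). At an unadjusted p under 0.05 the count was also 0 of 10, where 5.3% of all genes tested were higher and 2.06% lower. The Wald test of DESeq2 called 0 of the 10 genes at an adjusted p under 0.05 (background 0.182% of the genes with an adjusted p), and its smallest unadjusted p among them was 0.0522, for H2-DMb1. The fitted log2 fold change was above 0 in 10 of 10 genes (50.9% of all genes tested) and was 1 or more in 6 of 10 (11.4% of all genes tested). Its median over the 10 genes was 1.06, and over all genes tested 0.01.

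Single libraries decided these values. Without UMBO replicate 2 the log2 fold change was below 0 in all 10 genes, from -0.76 for Cd74 to -0.11 for H2-DMb1, with a median of -0.53. Without vehicle replicate 2 the median was 2.09, and 8 of 10 genes had both UMBO libraries above the remaining vehicle libraries. The share of all genes that did so was counted only with all 5 libraries (11.5%), so this count has no background of its own. In the fit without vehicle replicate 2, 7 of 10 had an unadjusted p under 0.05 in edgeR (9.36% of all genes tested in that fit were higher by this rule): H2-Aa, H2-Ab1, H2-Eb1, Cd74, Ciita, H2-DMa and H2-DMb1. Their adjusted p in edgeR was 0.42 each. Without UMBO replicate 1 the median was 1.76. Without vehicle replicate 1 the median was 0.67. In the fits with 1 UMBO library that lone library is assumed to vary like the vehicle ones.

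**Figure D2:**
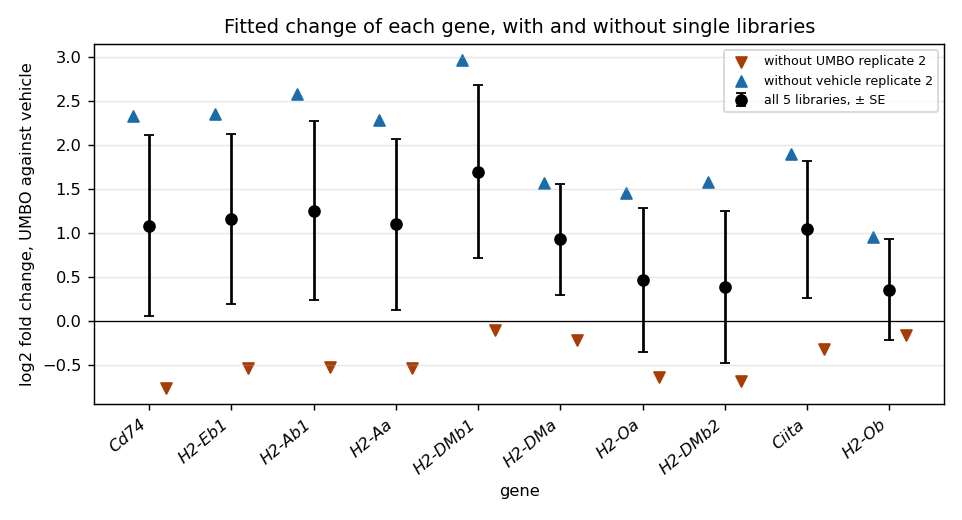
Fitted log2 fold change (edgeR, UMBO against vehicle) of the 10 genes from all 5 libraries (black points, bars are ± 1 standard error), without UMBO replicate 2 (brown) and without vehicle replicate 2 (blue). Every black point lies above 0, and every brown point lies below it, from -0.76 for Cd74 to -0.11 for H2-DMb1.

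Leukocyte genes moved with the class II genes. The 10 pan-leukocyte genes (Ptprc, which encodes CD45, and others) summed to 184.0, 354.6 and 207.4 CPM with vehicle and to 335.4 and 787.3 CPM with UMBO, and 7 of 10 had an unadjusted p under 0.05 in edgeR, all higher with UMBO (5.3% of all genes tested were higher by this rule). The count was 1 of 10 without vehicle replicate 1, without vehicle replicate 3 or without UMBO replicate 2, where 0.838%, 0.945% and 1.15% of all genes were higher by this rule. Without vehicle replicate 2 the count was 8 of 10, where 9.36% of all genes were higher by this rule. In bulk RNA, more cells of a type and more RNA per cell cannot be told apart. Relative to these genes the direction of the family was the opposite: the log2 CPM of a member minus the mean log2 CPM of the list was on average lower with UMBO in 9 of 10 genes, with a median difference of -0.28. Over all genes tested the same difference had a median of -1.29. With Ptprc alone as the reference the median difference of the members was 0.20, and with the whole list it was 0.06 without vehicle replicate 2 and 0.17 without UMBO replicate 1, so the sign rested on the reference and on single libraries.

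By library, the median of the 10 genes on this relative log2 scale was -0.43, 0.30 and -0.53 with vehicle and -0.68 and 0.12 with UMBO. Vehicle replicate 2 was the highest library in 9 of 10 genes. Cd74 relative to the list was at 2.66, 4.36 and 3.37 with vehicle and at 2.61 and 3.85 with UMBO. For H2-DMa, H2-DMb2 and H2-Ob both UMBO values were under all vehicle values (3 of 10), a share close to the 28% of all genes tested. H2-Ob was at -3.53, -3.07 and -3.14 with vehicle and at -3.84 and -4.34 with UMBO on this scale.

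**Figure D3:**
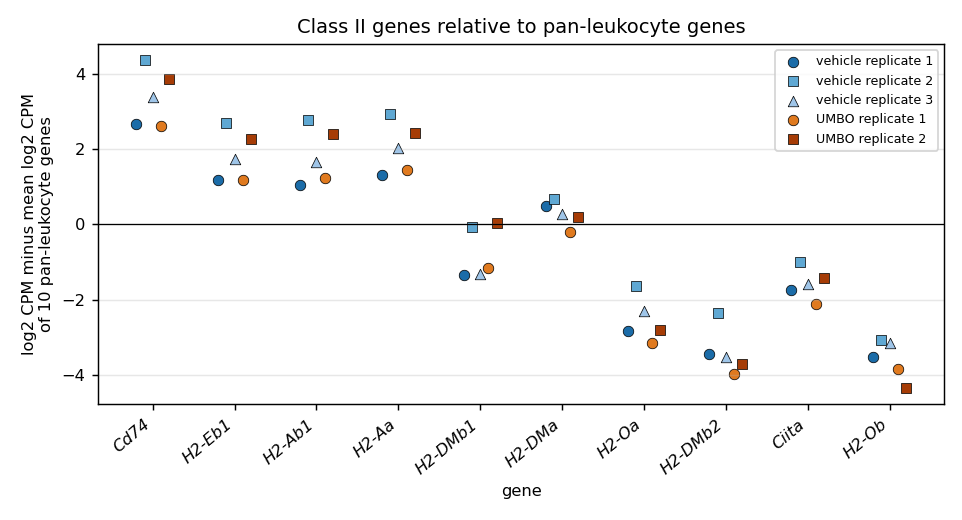
Log2 CPM of each class II gene minus the mean log2 CPM of 10 pan-leukocyte genes, 1 point per library. Vehicle replicate 2 is the highest point for 9 of the 10 genes, and for H2-DMa, H2-DMb2 and H2-Ob both UMBO points lie below the 3 vehicle points.

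Markers of the cells that can carry class II, and of T cells, were all above 0 in every library. The 8 B cell markers summed to 2.35 to 3.86 CPM with vehicle and to 3.25 and 7.39 CPM with UMBO. The 8 dendritic cell markers summed to 27.98 to 37.2 CPM with vehicle and to 32.0 and 49.8 CPM with UMBO. Most of that sum in the vehicle libraries came from Flt3 and Zbtb46, while Xcr1 and Clec9a, markers of cross-presenting dendritic cells, stayed under 1 CPM in every library. Flt3 and Zbtb46 had negative fitted log2 fold changes (-0.64 and -0.38), while those of the other dendritic cell markers were positive. In UMBO replicate 2 the largest part of the sum was Itgax, at 28.3 CPM. The 8 monocyte and macrophage markers summed to 32.7, 73.3 and 46.4 CPM with vehicle and to 57.8 and 161.7 CPM with UMBO. The libraries took the same order as in most class II genes, but single genes weighed heavily in this sum. Vcan gave most of it in vehicle replicates 1 and 3 and UMBO replicate 1 (26.7, 34.8 and 33.9 CPM). Arg1 was the largest part in vehicle replicate 2 (30.25 CPM, against 8.295 in UMBO replicate 1). Ccr2, Ly6c2, Ms4a7 and Plac8 were also higher in vehicle replicate 2 than in UMBO replicate 1, while Vcan, F13a1 and Chil3 were lower. The 8 microglia markers summed to 323.6 to 455.5 CPM with vehicle and to 610.5 and 732.9 CPM with UMBO, so that here the groups did not overlap. The 6 border macrophage markers summed to 10.2 to 15.8 CPM with vehicle and to 17.4 and 23.4 CPM with UMBO. The 6 T cell markers summed to 5.39, 19.1 and 12.5 CPM with vehicle and to 8.08 and 37.6 CPM with UMBO. At an unadjusted p under 0.05 in edgeR, 2 of 8 B cell, 0 of 8 dendritic cell, 1 of 8 monocyte and macrophage, 5 of 8 microglia, 2 of 6 border macrophage and 0 of 6 T cell markers were higher with UMBO and none lower, where 5.3% of all genes tested were higher and 2.06% lower by this rule. Without UMBO replicate 2, 3 of 8 microglia markers and 0 in the other 5 lists were higher by this rule (1.15% of all genes). Without vehicle replicate 1 the microglia count was 2 (0.838% of all genes) and without vehicle replicate 3 also 2 (0.945%), while without vehicle replicate 2 the monocyte and macrophage count was 5 (9.36%). The part of these cell types in the class II values was not tested.

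Within a library, some ratios between members were nearly constant and others were not. The ratios below are of CPM per kb of exon. Cd74 was between 5.12 and 6.07 times H2-Aa in all 5 libraries, and H2-Eb1 between 1.20 and 1.45 times H2-Ab1, although the levels themselves differed more than 12-fold. Of the 45 pairs of members, 6 had a ratio that differed by under 1.5-fold between libraries, all of them among Cd74, H2-Aa, H2-Ab1 and H2-Eb1.

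H2-DMb1 was 4.56, 5.07 and 4.90 times H2-DMb2 in the vehicle libraries and 7.41 and 13.9 times in the UMBO libraries. In reads, H2-DMb1 took 81.4%, 83% and 82.5% of the counts of both genes with vehicle (exact 95% intervals 77.4 to 85%, 81.3 to 84.5% and 79.3 to 85.4%, for counting error only) and 87.7% and 93.1% with UMBO (85.6 to 89.6% and 92.3 to 93.8%). The ratio of H2-DMb1 to H2-Oa was 2.37, 2.50 and 1.67 with vehicle and 3.33 and 6.04 with UMBO. The ratio of H2-DMa to H2-Oa was 4.14, 2.02 and 2.45 with vehicle and 3.19 and 3.29 with UMBO, where the groups overlapped. In all, the groups did not overlap in 11 of the 45 pairs, 7 of them with H2-DMb1. This is close to the 23.9% of all pairs of genes tested whose groups did not overlap, and the pairs named were chosen after their values were seen, so they are given without a test.

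**Figure D4:**
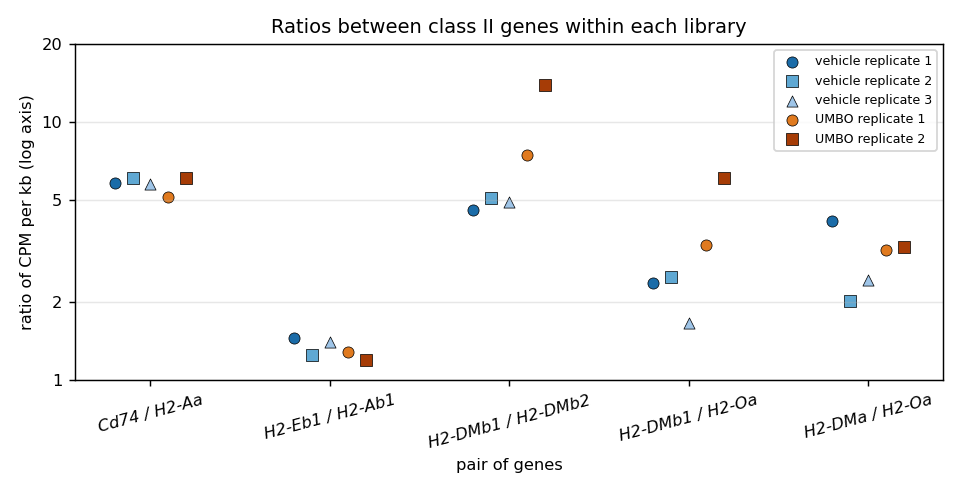
Ratio of CPM per kb of exon (log axis) between 5 pairs of class II genes, 1 point per library. Cd74 to H2-Aa and H2-Eb1 to H2-Ab1 stay within narrow bands, while H2-DMb1 to H2-DMb2 lies at 4.56 to 5.07 in the vehicle libraries and at 7.41 and 13.9 in the UMBO libraries.

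The other genes of the pathway were read from a list of 34, of which 33 had enough counts. Of these 33 genes, 7 had an unadjusted p under 0.05 in edgeR, all higher with UMBO, where 5.3% of all genes tested were higher by this rule. None passed after adjustment over all genes, with an edgeR adjusted p of 0.497 each. Without vehicle replicate 1 the count was 1, higher with UMBO (0.838% of all genes higher, 0.441% lower). Without vehicle replicate 3 it was 1 higher and 1 lower (0.945% and 0.937% of all genes), and without UMBO replicate 2 also 1 higher and 1 lower (1.15% and 0.71%). Without vehicle replicate 2 it was 16, all higher (9.36% of all genes higher, 2.21% lower), and without UMBO replicate 1 it was 18 higher and 3 lower (21.4% and 19.6%).

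The 7 factors that bind the X and Y boxes or their neighbours had fitted changes between -0.39 and 0.25. None of them had an unadjusted p under 0.05, and their median log2 fold change was -0.18. The smallest p belonged to Rfx5, a subunit of the X box factor RFX, which was at 29.5, 27.2 and 33.98 CPM with vehicle and at 27.9 and 18.4 CPM with UMBO, a log2 fold change of -0.39 (standard error 0.236), which was -0.12 without UMBO replicate 2.

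Of the 9 genes that induce Ciita or signal to it, 2 had an unadjusted p under 0.05. Spi1, the myeloid factor PU.1, was at 4.28, 13.3 and 5.66 CPM with vehicle and at 11.8 and 36.9 CPM with UMBO, a log2 fold change of 1.65 (standard error 0.641). Ifngr1, the ligand-binding chain of the interferon gamma receptor, was at 17.8, 25.4 and 20.3 CPM with vehicle and at 26.2 and 40.4 CPM with UMBO, a log2 fold change of 0.65 (standard error 0.258). These changes were 0.61 for Spi1 and 0.31 for Ifngr1 without UMBO replicate 2. Chosen after their values were seen, Ifng, which encodes interferon gamma, and Irf1, a transcription factor that acts on the inducible Ciita promoter, are given as levels. Ifng was at 0.0802, 0.445 and 0.272 CPM with vehicle and at 0.187 and 0.641 CPM with UMBO. Irf1 was at 15.9, 72.3 and 20.2 CPM with vehicle and at 32.9 and 159.5 CPM with UMBO. Vehicle replicate 2 lay above UMBO replicate 1 in both genes, as it did in the class II genes.

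The list of endosomal antigen processing holds proteases and Ifi30, which encodes a thiol reductase. Fitted changes were positive in 6 of 6 of its genes (50.9% of all genes tested), and 3 of them had an unadjusted p under 0.05. Ctsd, the protease cathepsin D, was at 121.4, 239.9 and 157.3 CPM with vehicle and at 334.8 and 689.4 CPM with UMBO, a log2 fold change of 1.57 (standard error 0.419). In Ctsd, in Ctsl (log2 fold change 0.98, standard error 0.295), cathepsin L, and in Ctsb, cathepsin B, both UMBO values exceeded all vehicle values, as they did in 11.5% of all genes tested. For Lgmn, the asparaginyl endopeptidase legumain, the log2 fold change was 1.09 (standard error 0.438) and the groups overlapped. Without UMBO replicate 2 the changes were 0.95 for Ctsd, 0.59 for Ctsl and 0.36 for Lgmn.

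Among the 10 genes for surface turnover, costimulation and ligands, 2 had an unadjusted p under 0.05. Cd44, which acts with Cd74 in the receptor for the cytokine Mif, was at 8.83, 23.4 and 10.8 CPM with vehicle and at 28.4 and 72.4 CPM with UMBO, a log2 fold change of 1.81 (standard error 0.548). Lag3, an inhibitory receptor that binds class II, was at 7.56, 21.8 and 9.62 CPM with vehicle and at 21.9 and 42.8 CPM with UMBO, a log2 fold change of 1.32 (standard error 0.518). They were 0.98 for Cd44 and 0.76 for Lag3 without UMBO replicate 2. The most negative fitted change of the tested pathway genes, named here after its value was seen, was that of Cd4, the T cell coreceptor for class II, at 14.6, 14.0 and 7.31 CPM with vehicle and 4.56 and 8.31 CPM with UMBO. The fitted log2 value in edgeR was -0.89 (standard error 0.421, unadjusted p 0.0777), and -1.39 without UMBO replicate 2. Cd4 did not follow the 6 T cell markers: it was highest in vehicle replicate 1, where their sum was lowest (5.39 CPM). In the list of other class II genes, H2-Eb2, whose promoter window also held both cores, was at 0.883, 2.58 and 0.803 CPM with vehicle and at 1.58 and 5.28 CPM with UMBO, for which edgeR gave a log2 fold change of 1.27 (standard error 0.719, unadjusted p 0.128), and 0.16 without UMBO replicate 2.

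**Figure D5:**
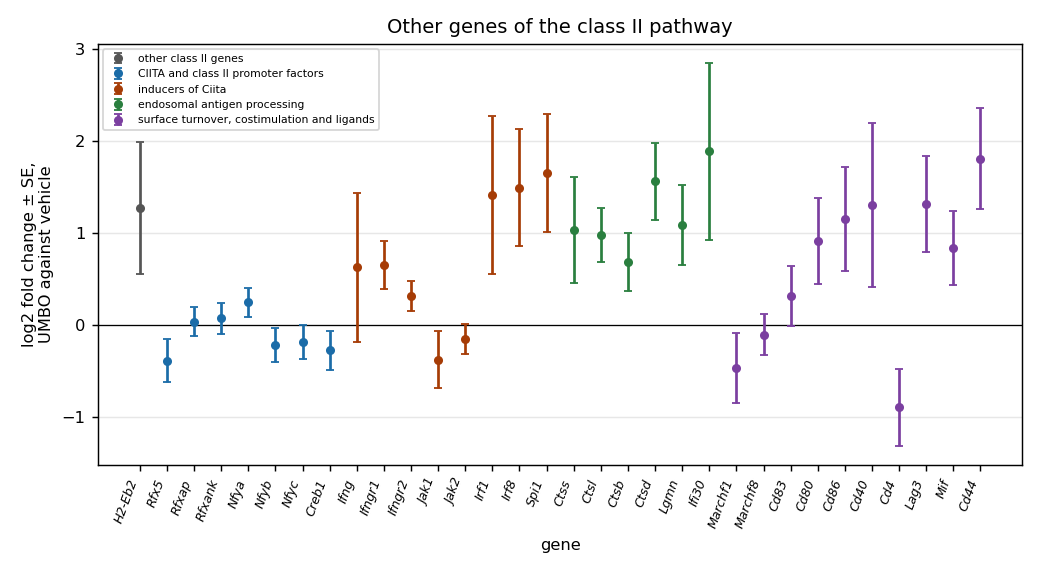
Fitted log2 fold change (edgeR, UMBO against vehicle; points) with ± 1 standard error (bars) of the tested genes of the pathway, colored by list, without 1 gene that is not reported here. The promoter-binding factors lie between -0.39 and 0.25, and the 6 endosomal genes between 0.69 and 1.89.

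The genes most like the family across the 5 libraries were found by the root mean square distance between log2 CPM profiles, each centred on its own mean, among 16432 other genes with a mean of at least 1 CPM. The nearest was Iigp1, an immunity-related GTPase, at a distance of 0.14 log2 units from the median profile of the 10 genes. It was at 23.9, 131.5 and 35.4 CPM with vehicle and at 48.6 and 248.8 CPM with UMBO. H2-Q4, a non-classical class I gene, Cxcl9, a chemokine, and the guanylate-binding protein genes Gbp4 and Gbp8 followed, at 0.16, 0.16, 0.17 and 0.17. Among the members themselves this distance ran from 0.12 for H2-Eb1 to 0.59 for H2-Ob.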

How the data were processed

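RNA of the right hemisphere was sequenced in 3 vehicle and 2 UMBO libraries, grouped by the labels. The authors mapped reads with STAR 2.7.2a to GRCm38 and deposited raw counts per Ensembl gene, 1 table per library, without normalization; the annotation release and strand setting are not given in the sources used here. Symbols (55394 of 55573 genes), positions and exon lengths came from GENCODE M21, on the same build, and promoter windows from RefSeq (GRCm38.p6). Counts were filtered with filterByExpr, scaled by TMM and tested across 23592 genes with edgeR 4.0.16 (R 4.3.3), quasi-likelihood test, Benjamini-Hochberg threshold 0.05. DESeq2 1.42.0, other scalings and filters, the replicate number as a block and each library left out were alternatives. Log2 CPM used a prior count of 2. Scripts were tested on simulated data. The members and lists were chosen with earlier results of these data known. All members are named, and in the pathway lists each gene with an unadjusted p under 0.05 and the smallest p of each list, besides the 5 nearest profiles. Total counts of 59736771 to 86164159 make counting error small beside the spread between mice, which sets the precision. Nothing states whether mice of a group shared a litter or day.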

Additional observations from a re-analysis of the deposited data

How the results depend on the processing

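With 3 libraries against 2, the comparison is limited by the spread between mice. The count of class II genes with an adjusted p under 0.05 was 0 under both other scalings, both other filters and each vehicle library left out. In those fits 0% of all genes passed. With DESeq2 the count was also 0, where 0.182% of all genes passed. Fits with a lone UMBO library are not part of this count. The median log2 fold change of the class II genes ran from 1.03 to 1.18 under the scalings, filters and DESeq2, and from -0.53 to 2.09 with 1 library left out. At an unadjusted p under 0.05 in edgeR the count of class II genes was 1 with no filter on low counts (H2-DMb1), where 7.31% of all genes were higher and 2.83% lower. It was 7 without vehicle replicate 2 (9.36% of all genes higher). Without vehicle replicate 1 or vehicle replicate 3 it was 0 (0.838% and 0.945% higher). The count of genes with every UMBO value above all vehicle values was 0 to 8 with a vehicle library left out and 0 to 9 over all fits with 1 library left out, the 9 being those where UMBO replicate 2, then the lone UMBO library, is highest. For the pathway genes the count of 7 at an unadjusted p under 0.05 became 15 with no filter (7.31% of all genes higher, 2.83% lower), 12 with DESeq2 (8.11% and 3.08%) and 1 to 21 with 1 library left out (0.838% and 0.441%, 21.4% and 19.6%); the cause was not tested. The median difference relative to the pan-leukocyte genes, -0.28, was 0.20 with Ptprc alone and -0.67 to 0.17 with 1 library left out.

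Over the fits that each lack 1 library, the log2 fold change ran from -0.54 to 2.29 for H2-Aa, -0.53 to 2.58 for H2-Ab1, -0.54 to 2.35 for H2-Eb1, -0.76 to 2.33 for Cd74, -0.33 to 1.90 for Ciita, -0.21 to 1.57 for H2-DMa, -0.11 to 2.96 for H2-DMb1, -0.68 to 1.58 for H2-DMb2, -0.65 to 1.46 for H2-Oa and -0.16 to 0.95 for H2-Ob, and the lowest value was without UMBO replicate 2 each time.

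With the replicate number as a block (replicate block), edgeR gave 7 of the 10 class II genes an adjusted p under 0.05, and 9.91% of all genes tested. At an unadjusted p under 0.05 it gave 7 class II genes and 19 pathway genes, where 14.4% of all genes were higher and 11.6% lower, and the median log2 fold change of the class II genes was 0.88. The labels and methods do not tie a number to a litter or day. Groups have 2 numbers in common. Deviations from the group means correlated at 0.45 and 0.76 for these, but UMBO, with 2 libraries, has deviations that are exact opposites, and pairing is not established.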
